A study of Mus musculus with 16 samples.

Results

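The transcripts described here are those of 8 enzymes of cholesterol synthesis (Mvk, Mvd, Fdps, Fdft1, Sqle, Lss, Cyp51 and Hsd17b7), of the transcription factor gene Srebf2 and of the ubiquitin ligase gene Mylip, in mouse heart. They were chosen by name, with earlier results of these data known. Counts among the 10 genes set beside shares of all genes are therefore descriptions and no test of enrichment. Each gene was read from the probe sets whose only annotated gene symbol is that gene. All 10 genes were found, with 1 probe set each, among the 22180 genes measured.

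Cells build cholesterol from acetyl-CoA by way of mevalonate, farnesyl diphosphate, squalene and lanosterol. SREBP2, the protein of Srebf2, is held in the endoplasmic reticulum while sterols are plentiful and, when they run low, is cut free and switches on the genes of nearly every step. Mylip works on the other side of the balance: it is switched on by LXR, the nuclear receptors that sense oxysterols, and its protein (also called IDOL) marks lipoprotein receptors such as Vldlr and Lrp8 for degradation. In the circadian clock, CLOCK and BMAL1 bind E-box sequences and switch on genes such as Dbp.

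The hearts came from 16 C57Bl/6J mice in a design of 2 genotypes by 2 diets, with 4 mice in each group. WT mice on standard chow (SC) are WT SC, WT mice on the high-fat diet (HFD) are WT HFD, and mice with the Clock delta 19/delta 19 genotype on the same diets are Clock SC and Clock HFD. Every mouse had eaten its diet for 24 weeks, was 32 weeks old and was killed 7 hours after lights on, and total RNA from the myocardium (500 ng, 1 array per mouse) was measured on Affymetrix arrays. The labels call the mutant mice transgenic. As background, the delta 19 allele is a germline mutation that leaves CLOCK able to bind its partner but poor at activating genes, and is not restricted to the heart. All values come from 1 time of day. Genotype and diet can thus be compared separately and for an effect of one on the other.

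Each value is a log2 difference from that gene's median over the 16 arrays, where the base 2 and the sign (positive for more transcript) were assumed because the sources used here do not give them. Such values compare hearts with each other. They do not show how abundant a transcript was, so levels of different genes cannot be ranked and the presence of cardiomyocyte markers could not be checked. Differences are limma estimates ± standard error, with p-values adjusted over all 22180 genes, and "rose", "fell", "higher" and "lower" as results refer to adjusted p under 0.05. In whole tissue, fewer cells of a type and less RNA per cell cannot be told apart.

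Across the arrays, medians lay between -0.00154 and 0.00281. The Clock transcript itself averaged -0.08 ± 0.19 (SD, n = 4) in WT SC, -0.40 ± 0.14 in WT HFD, 0.08 ± 0.05 in Clock SC and 0.02 ± 0.03 in Clock HFD. It was higher in mutant hearts on HFD (0.42 ± 0.08, adjusted p = 0.00965) but the region its probe set covers is unknown here, so it does not check the genotype. Dbp, a target of CLOCK, separated all 8 mutant from all 8 WT hearts (-2.39 ± 0.19 on average, adjusted p = 2.03e-06). Within WT SC, replicate 4 stood apart: its mean over 13 clock genes driven through E-boxes was -0.02, the lowest of the 4, against a highest of 0.88. Replicate 2 of the same group was left out together with it in 1 alternative, and Clock SC replicate 4 correlated least with the other hearts of its group (mean r -0.0131).

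Promoter sequence was at hand for 7 of the 10 genes (Hsd17b7, Lss, Cyp51, Mvd, Mvk, Mylip and Srebf2), from RefSeq on build GRCm38.p6. The windows run from 250 bases before to 50 bases after an annotated start. They were searched on both strands for the E-box CACGTG and for TCACNNCA, an SRE-like pattern of the kind SREBPs bind. These motifs were chosen after the sequences had been seen, and neither pattern overlaps the other in the matches given here. Hsd17b7 is shown because it is the enzyme gene with the largest genotype difference, Srebf2 because it encodes the regulator, and Cyp51 as an enzyme gene that did not pass the genotype test. Each is written 5′ to 3′ on the gene's own strand and up to the outermost annotated start, with motif matches in capitals. The positions are chr1:169969243-169969455 (minus strand) for Hsd17b7, chr5:4104698-4104947 (minus strand) for Cyp51 and chr15:82147019-82147268 (plus strand) for Srebf2.
Hsd17b7: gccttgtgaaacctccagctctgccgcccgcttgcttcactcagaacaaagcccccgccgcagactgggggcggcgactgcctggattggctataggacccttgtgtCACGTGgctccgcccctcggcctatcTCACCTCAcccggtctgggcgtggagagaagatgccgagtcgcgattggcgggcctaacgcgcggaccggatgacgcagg
Cyp51: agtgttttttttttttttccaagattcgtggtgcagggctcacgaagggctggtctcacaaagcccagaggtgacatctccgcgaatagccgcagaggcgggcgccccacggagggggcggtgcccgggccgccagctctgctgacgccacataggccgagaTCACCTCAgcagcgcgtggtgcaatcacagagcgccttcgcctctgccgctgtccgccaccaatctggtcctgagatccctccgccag
Srebf2: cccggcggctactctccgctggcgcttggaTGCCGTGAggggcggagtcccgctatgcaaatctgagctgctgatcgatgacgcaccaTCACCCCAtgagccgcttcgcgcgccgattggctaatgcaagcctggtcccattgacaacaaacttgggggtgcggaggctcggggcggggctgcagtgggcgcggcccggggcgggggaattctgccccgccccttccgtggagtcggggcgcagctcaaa

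Distances are counted from the outermost annotated start, which can differ from the start that a window was built on. The Hsd17b7 window held 1 E-box, 106 bases before the outermost start, and 1 SRE-like match, 80 bases before it. The Cyp51 window held 1 SRE-like match, at 88 bases, and the Srebf2 window held 2, at 220 and 162 bases. No E-box was found in the other 6 windows, and no SRE-like match in those of Lss, Mvd, Mvk and Mylip. Of all 32851 promoter windows of this length, 7.15% held the E-box and 13.8% the SRE-like pattern. A match is a string of letters and no evidence of binding.

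The first comparison asks which of these transcripts differ between mutant and WT hearts. Of the 8 enzymes, Hsd17b7 and Fdft1 fell in Clock hearts on SC and again on HFD, and the other 6 did not pass on either diet. Hsd17b7 encodes the reductase that acts in the removal of methyl groups from the sterol ring after lanosterol. Fdft1 encodes squalene synthase, which joins farnesyl diphosphate units into squalene, the first step given over to sterols alone. Neither Mylip nor Srebf2 passed a genotype test. On SC, the 2 of 10 genes that passed were both lower. Over all genes, 0.491% passed on SC in either direction and 0.252% were lower. On HFD again 2 of 10 passed, both lower, where 1.90% of all genes passed and 0.771% were lower. For the average of both diets, 2 of 10 passed, both lower, against 3.88% of all genes passing and 1.44% lower.

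Hsd17b7 lay at 0.62, 0.60, 0.53 and 0.44 in the WT SC hearts (replicates 1 to 4) and at 0.026, 0.17, 0.41 and 0.54 in the WT HFD hearts. In Clock SC hearts it lay at -0.35, -0.14, -0.09 and -0.026, and in Clock HFD hearts at -0.30, -0.60, -0.19 and -0.048. Every WT heart was above every mutant heart, the closest being WT HFD replicate 1 and Clock SC replicate 4. Group means ran in the order WT SC (0.55 ± 0.08, SD, n = 4), WT HFD (0.29 ± 0.23), Clock SC (-0.15 ± 0.14) and Clock HFD (-0.29 ± 0.24). The diet pairs next to each other in this order did not pass a test. On SC the transcript fell by 0.70 ± 0.12 (1.63-fold, 95% interval -0.95 to -0.45, adjusted p = 0.0111), rank 33 of 22180 genes by p. On HFD it fell by 0.57 ± 0.12 (1.49-fold, adjusted p = 0.0156). Averaged over diets it fell by 0.64 ± 0.08 (1.55-fold, adjusted p = 0.000286). The call on SC was lost without WT SC replicates 2 and 4 (adjusted p = 0.0757), a setting chosen after seeing the data. The call on HFD did not survive leaving out WT HFD replicate 3 (adjusted p = 0.0556), WT HFD replicate 4 (0.0510) or Clock HFD replicate 2 (0.0523).

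Fdft1 lay at 0.35, 0.35, 0.45 and 9.3e-05 in WT SC hearts and at 0.27, 0.43, 0.47 and 0.39 in WT HFD hearts. In Clock SC hearts it lay at -0.10, -0.15, -0.09 and -0.06, and in Clock HFD hearts at -0.08, -9.35e-05, -0.09 and -0.16. All mutant hearts were below all WT hearts, but WT SC replicate 4 and Clock HFD replicate 2 nearly touched at the boundary. The transcript fell by 0.39 ± 0.08 on SC (1.31-fold, adjusted p = 0.0300), by 0.47 ± 0.08 on HFD (1.39-fold, adjusted p = 0.00333) and by 0.43 ± 0.05 on average (1.35-fold, adjusted p = 0.000232). The low WT SC heart is the one with the low clock gene mean. Without it, the difference on SC was -0.49 (adjusted p = 0.000292). The call on SC was lost when any 1 of 6 other arrays of these groups was left out (adjusted p up to 0.105).

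**Figure D1:**
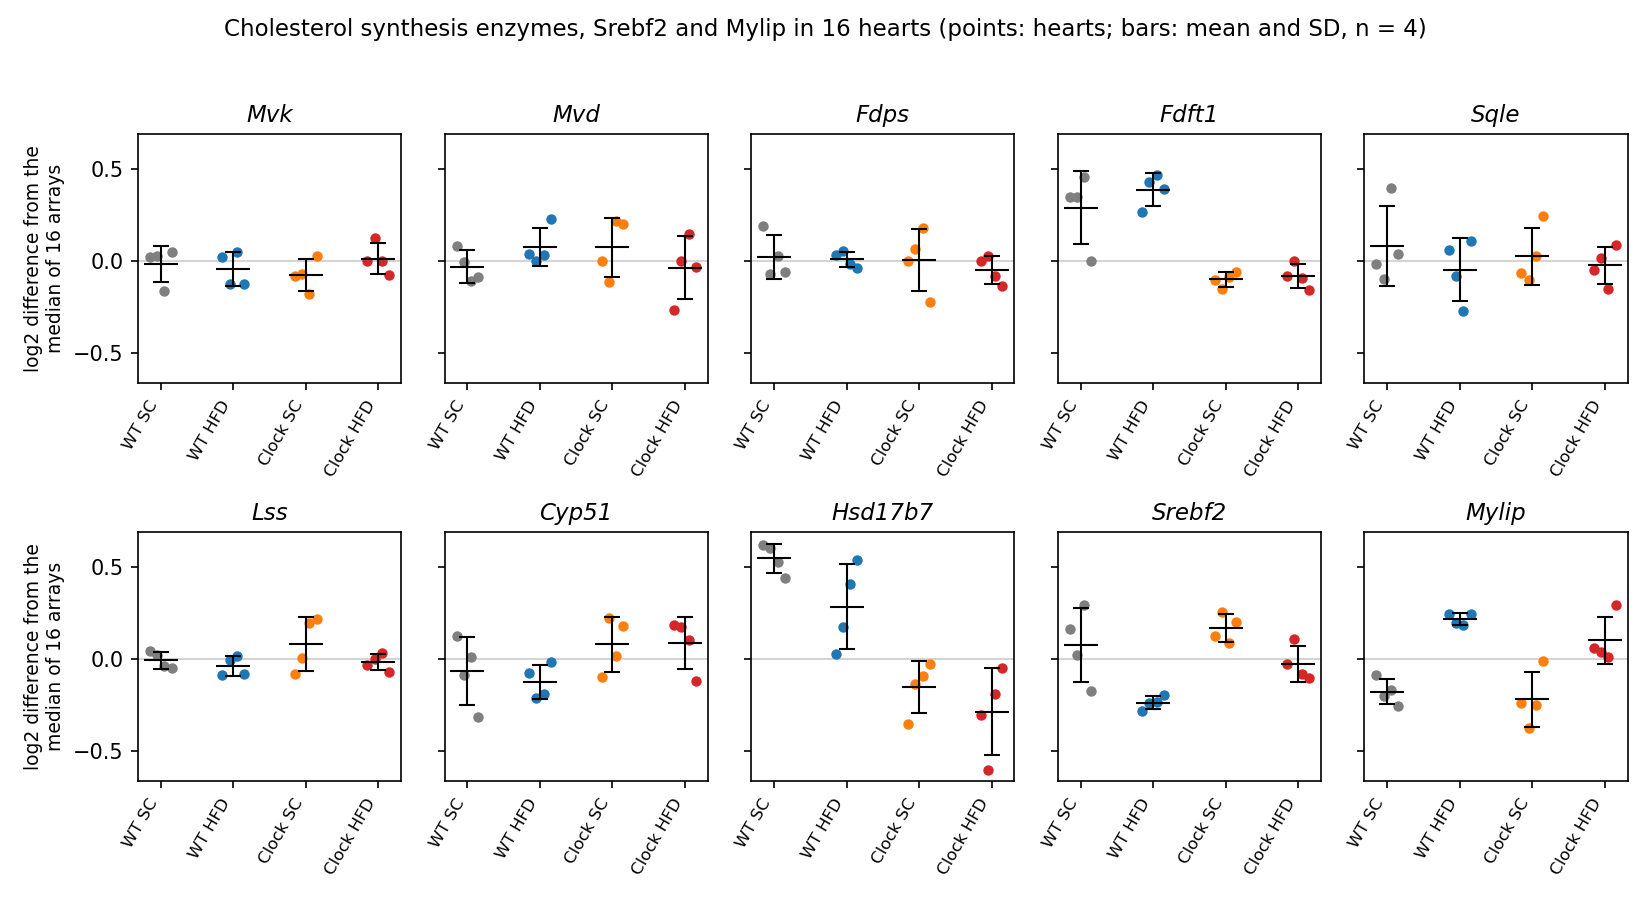
Log2 difference from the gene's median over 16 arrays (vertical axis) for the 8 enzymes in pathway order, Srebf2 and Mylip, by group (horizontal axis); points are hearts, and bars are the mean and SD of 4 hearts. Hsd17b7 and Fdft1 separate WT from Clock hearts, Mylip separates HFD from SC hearts, and the groups of the other enzymes overlap.

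The other 6 enzymes did not pass on either diet. Of those that act before Fdft1, Mvk, the mevalonate kinase, differed between genotypes by -0.06 ± 0.06 on SC and 0.06 ± 0.06 on HFD. Mvd, the decarboxylase that ends the mevalonate stretch, differed by 0.11 ± 0.09 and -0.11 ± 0.09. Fdps, the farnesyl diphosphate synthase one step before Fdft1, differed by -0.02 ± 0.08 and -0.06 ± 0.08. In all 3 genes the groups overlapped on both diets.

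Sqle, the epoxidase one step after Fdft1, differed by -0.05 ± 0.11 on SC and 0.02 ± 0.11 on HFD. Lss, which closes the ring to lanosterol, differed by 0.09 ± 0.06 and 0.02 ± 0.06. Cyp51, the lanosterol demethylase, had values pointing upwards on both diets, 0.15 ± 0.09 on SC and 0.21 ± 0.09 on HFD (adjusted p = 0.338). On average it differed by 0.18 ± 0.07 (95% interval 0.04 to 0.32, limma's unadjusted p = 0.0169, adjusted p = 0.173). Its WT hearts ranged from -0.31 to 0.13 and its mutant hearts from -0.12 to 0.22, so they overlapped. For the average genotype difference, the 95% intervals were -0.17 to 0.14 for Sqle, -0.03 to 0.15 for Lss, -0.14 to 0.13 for Mvd, -0.10 to 0.09 for Mvk and -0.15 to 0.08 for Fdps. A fall of the size seen in Fdft1 lies outside all 5 intervals.

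Group separation gave similar counts. On SC, 2 of the 10 genes had groups that did not overlap (4.95% of all genes), Hsd17b7 and Fdft1. On HFD it was 3 of 10 (8.89% of all genes), with Srebf2 as the third. Over all 8 WT and 8 mutant hearts it was 2 of 10, Hsd17b7 and Fdft1, where 0.730% of all genes separated. The median genotype difference of the 10 genes was -0.03 on SC and -0.02 on HFD, beside -0.000268 and 0.000261 over all genes.

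Among 10 other measured synthesis enzymes, 1 fell and 9 did not pass on SC, on HFD and on average. Over all genes, 0.252%, 0.771% and 1.44% fell in these comparisons. The enzyme gene that fell was Pmvk, the phosphomevalonate kinase that acts between Mvk and Mvd. It averaged 0.25 ± 0.13 (SD, n = 4) in WT SC, 0.17 ± 0.10 in WT HFD, -0.11 ± 0.06 in Clock SC and -0.09 ± 0.04 in Clock HFD. Its WT and mutant hearts did not overlap on either diet. Pmvk fell by 0.37 ± 0.06 on SC (adjusted p = 0.0123), by 0.26 ± 0.06 on HFD (0.0416) and by 0.31 ± 0.04 on average (0.000568). The median difference of the 10 enzymes was 0.03 on SC and 0.08 on HFD.

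**Figure D2:**
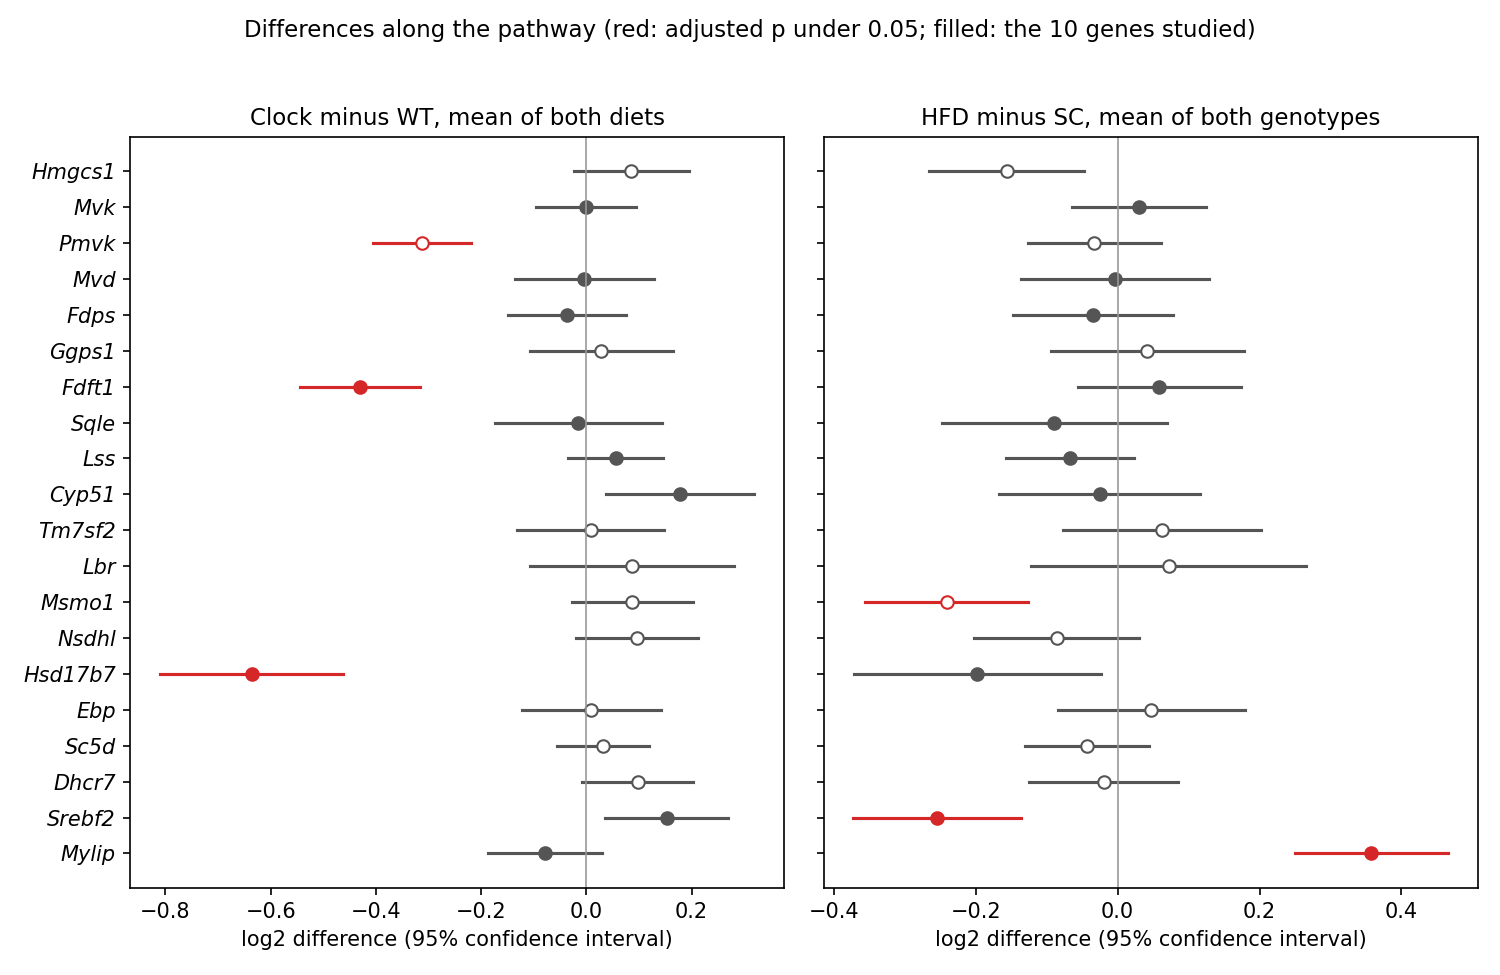
Average genotype difference (left, Clock minus WT) and average diet difference (right, HFD minus SC) on the log2 scale (horizontal axes) for 18 synthesis enzymes in pathway order, Srebf2 and Mylip (vertical axis); lines are 95% confidence intervals, red marks adjusted p under 0.05 and filled points are the 10 genes described here. Pmvk, Fdft1 and Hsd17b7 lie to the left of 0 in the genotype panel, and Msmo1, Srebf2 and Mylip are the genes marked in the diet panel.

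Genes that control SREBPs or handle cholesterol gave 1 genotype call. None of 8 measured genes of SREBP processing and sterol sensing passed in limma's test, and 1 had an unadjusted p under 0.05 on each diet, where 9.77% of all genes had one on SC and 13.5% on HFD. Those with the smallest p on SC were Erlin1, an endoplasmic reticulum protein (0.18 ± 0.08), and Mbtps2, a protease that cuts SREBPs (0.08 ± 0.06). On HFD they were Mbtps1, the partner protease (0.18 ± 0.08), and Srebf1 (-0.10 ± 0.05), and on average Mbtps1 (0.13 ± 0.06) and Erlin1 (0.11 ± 0.05). None of 8 genes of lipoprotein uptake and cholesterol transport passed (0 with an unadjusted p under 0.05 on SC and 1 on HFD, beside the same 9.77% and 13.5% of all genes). Vldlr (0.09 ± 0.06) and Scarb1 (0.13 ± 0.10) had the smallest p on SC. Npc1 and Npc2, which move cholesterol out of lysosomes, had it on HFD (-0.22 ± 0.07 and -0.11 ± 0.08) and on average (-0.14 ± 0.05 and -0.10 ± 0.06). Of 10 LXR and efflux genes, none passed on either diet alone, while 4 on SC and 3 on HFD had an unadjusted p under 0.05, beside 9.77% and 13.5% of all genes. Scd1, a fatty acid desaturase (0.40 ± 0.13), and Lpcat3, a phospholipid-remodelling enzyme (-0.20 ± 0.07), were at the smallest p on SC, and the efflux pump gene Abca1 (-0.17 ± 0.05) and Lpcat3 (-0.18 ± 0.07) on HFD. Lpcat3 fell on average by 0.19 ± 0.05 (adjusted p = 0.0336), 1 of these 10 genes, where 1.44% of all genes fell.

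The second comparison asks what the high-fat diet did to these transcripts. No enzyme of the 8 passed limma's test in WT hearts, in Clock hearts or on average, and Hsd17b7 alone had an unadjusted p under 0.05, in WT hearts (0.0382) and on average (0.0282). That 1 of 8 stood beside 10.7% of all genes in WT hearts and 13.2% on average. Mylip rose with HFD in WT hearts, and on average over both genotypes Mylip rose and Srebf2 fell. In WT hearts 1 of 10 genes passed, higher on HFD, where 0.352% of all genes passed and 0.185% were higher. In Clock hearts 0 of 10 passed, against 0.0902% of all genes in limma's test. At unadjusted p under 0.05, 2 of the 10 differed there (Mylip and Srebf2), against 8.42% of all genes. On average 2 of 10 passed, against 1.54% of all genes, of which 0.812% were higher and 0.726% lower.

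Mylip lay at -0.09, -0.20, -0.17 and -0.25 in WT SC hearts and at 0.24, 0.20, 0.18 and 0.25 in WT HFD hearts. In Clock SC hearts it lay at -0.24, -0.37, -0.25 and -0.012, and in Clock HFD hearts at 0.06, 0.04, 0.012 and 0.29. Every HFD heart was above every SC heart, and the boundary ran between Clock SC replicate 4 and Clock HFD replicate 3. The order of the group means was WT HFD (0.22 ± 0.03, SD, n = 4), Clock HFD (0.10 ± 0.13), WT SC (-0.18 ± 0.07) and Clock SC (-0.22 ± 0.15). The 2 HFD groups and the 2 SC groups did not differ beyond the threshold by genotype. Mylip rose by 0.39 ± 0.07 in WT (1.31-fold, adjusted p = 0.0257) and by 0.36 ± 0.05 on average (1.28-fold, adjusted p = 0.00230, rank 25). In Clock hearts the difference was 0.32 ± 0.07 (adjusted p = 0.110), and it passed with array weights (0.33, adjusted p = 0.0475). The WT call was lost in 7 of 8 settings that left out 1 array (adjusted p up to 0.0910) and with the mean of immediate early genes as a covariate (0.147). The average call held in all 24 other settings.

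Srebf2 lay at 0.17, 0.025, 0.29 and -0.17 in WT SC hearts and at -0.28, -0.24, -0.23 and -0.20 in WT HFD hearts. In Clock SC hearts it lay at 0.12, 0.26, 0.09 and 0.20, and in Clock HFD hearts at -0.025, 0.11, -0.08 and -0.10. The WT HFD hearts were below all other hearts, and WT SC replicate 4 was the lowest of its group. In the order of means, Clock SC (0.17 ± 0.08, SD, n = 4) came first, then WT SC (0.08 ± 0.20), Clock HFD (-0.02 ± 0.10) and WT HFD (-0.24 ± 0.04). Srebf2 fell by 0.25 ± 0.06 on average (1.19-fold, adjusted p = 0.0298). The difference was -0.32 ± 0.08 in WT (adjusted p = 0.0990) and -0.19 ± 0.08 in Clock hearts (adjusted p = 0.498). Without WT SC replicate 4 the WT difference was -0.40 and passed (adjusted p = 0.0293). The average call was lost in 8 of 16 settings that left out 1 array (adjusted p up to 0.0662), namely without WT SC replicate 1, WT HFD replicate 1 or 2, Clock SC replicate 2 or 4 or Clock HFD replicate 1, 3 or 4, and with the immediate early covariate (0.176). Between genotypes Srebf2 differed by 0.21 ± 0.08 on HFD (adjusted p = 0.221), and by 0.15 ± 0.06 on average (adjusted p = 0.159).

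Some endothelial markers also differed by diet and genotype. On average 3 of 10 endothelial genes fell with HFD (Kdr, -0.24 ± 0.05, Emcn, -0.21 ± 0.05, and Egfl7, -0.20 ± 0.04), and 6 of 10 were higher in Clock hearts. Over all genes, 0.726% fell with HFD on average and 2.44% were higher in Clock hearts on average. The mean of the endothelial markers ranged from -0.09 to 0.06 in WT SC hearts, from -0.29 to -0.21 in WT HFD, from 0.06 to 0.18 in Clock SC and from -0.03 to 0.17 in Clock HFD. The lowest hearts of this marker list were thus the 4 WT HFD hearts, as for Srebf2. Of 10 fibroblast markers 4 were higher in Clock hearts on average, with means from -0.24 to -0.07 in WT SC, -0.16 to 0.14 in WT HFD, -0.02 to 0.10 in Clock SC and -0.08 to 0.26 in Clock HFD. Immediate early genes had a mean of 0.07 ± 0.14 (SD, n = 4) in WT SC, -0.36 ± 0.32 in WT HFD, 0.11 ± 0.18 in Clock SC and -0.04 ± 0.38 in Clock HFD. The part of the endothelial and fibroblast markers in the results for the 10 genes was not tested.

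The enzymes gave small diet differences. In WT hearts Hsd17b7 differed by -0.26 ± 0.12 (adjusted p = 0.425), Sqle by -0.13 ± 0.11 and Cyp51 by -0.06 ± 0.09. The other 5 enzymes differed by -0.03 to 0.11 in WT hearts. In Clock hearts Hsd17b7 differed by -0.13 ± 0.12, and the other 7 by -0.11 to 0.09. All 8 enzymes had overlapping diet groups in both genotypes. Groups did not overlap in WT hearts for 2 of the 10 genes, Mylip and Srebf2 (5.30% of all genes), in Clock hearts for 1, Mylip (5.31%), and over all 8 against 8 hearts for 1, Mylip (0.325%). The median of the 10 genes was -0.03 in WT and -0.05 in Clock hearts.

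**Figure D3:**
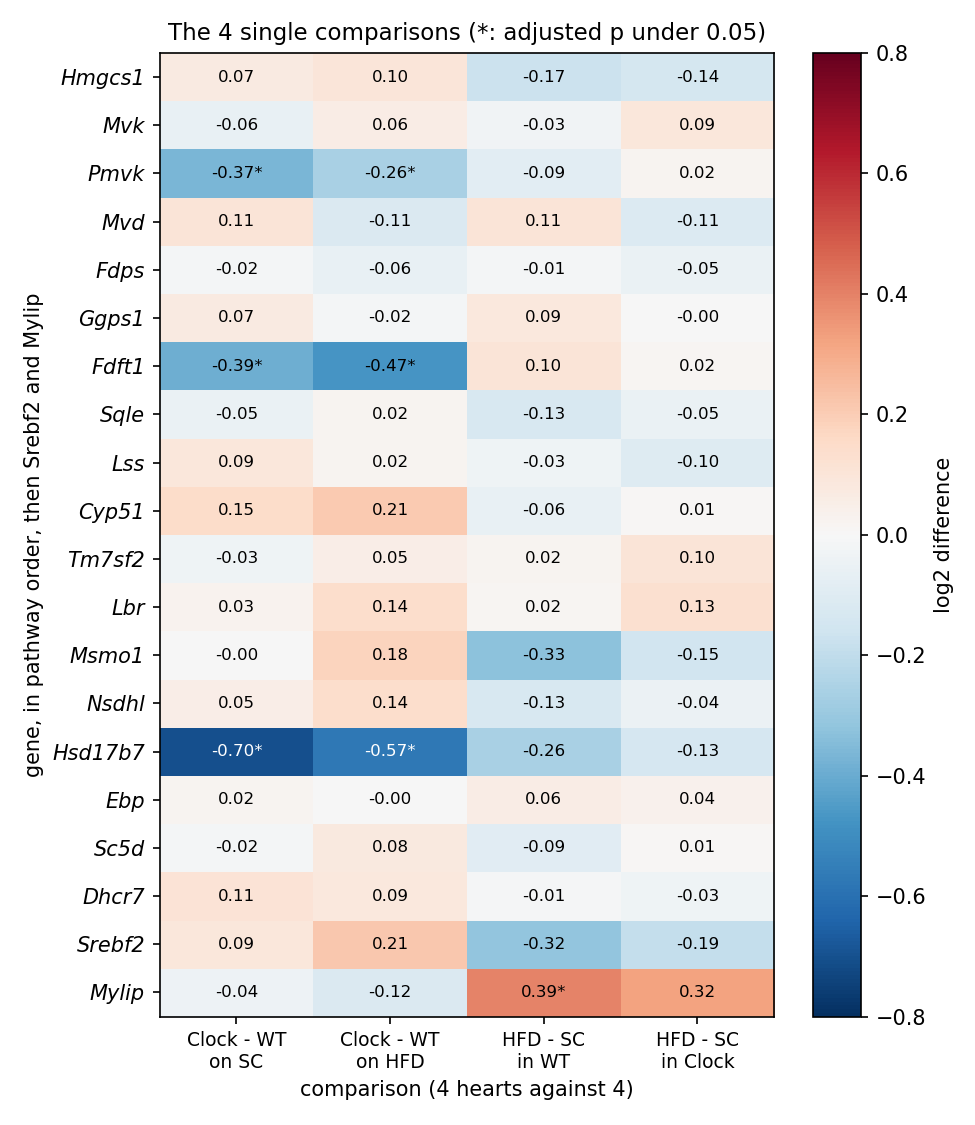
Log2 difference in each of the 4 single comparisons (columns, 4 hearts against 4) for the synthesis enzymes in pathway order, Srebf2 and Mylip (rows); colour and number give the difference and an asterisk marks adjusted p under 0.05. The genotype columns are marked at Pmvk, Fdft1 and Hsd17b7, and the WT diet column at Mylip.

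Of the other measured synthesis enzymes, 1 of 10 fell with HFD on average (beside 0.726% of all genes) and 9 did not pass. This was Msmo1, the methylsterol oxidase that acts shortly before Hsd17b7 (-0.24 ± 0.05, adjusted p = 0.0338). It differed by -0.33 ± 0.08 in WT (adjusted p = 0.0774) and by -0.15 ± 0.08 in Clock hearts (0.622). Hmgcs1, the HMG-CoA synthase, had the next smallest p in both genotypes (-0.17 ± 0.07 and -0.14 ± 0.07). No gene of SREBP processing passed, and 2 of 8 in WT hearts, 0 in Clock hearts and 2 on average had an unadjusted p under 0.05, beside 10.7%, 8.42% and 13.2% of all genes. Srebf1 (0.16 ± 0.05) and Erlin1 (0.21 ± 0.08) were nearest in WT hearts, and Scap, the escort of SREBPs (0.12 ± 0.07), and Erlin1 (0.07 ± 0.08) in Clock hearts. On average they were Erlin1 (0.14 ± 0.05) and Srebf1 (0.10 ± 0.04).

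Among LXR and efflux genes, 2 of 10 rose with HFD on average (beside 0.812% of all genes) and 8 did not pass. Abca1, a target of LXR like Mylip, averaged -0.12 ± 0.09 (SD, n = 4) in WT SC, 0.24 ± 0.05 in WT HFD, -0.09 ± 0.03 in Clock SC and 0.08 ± 0.09 in Clock HFD. It also separated the diets over all hearts. Abca1 rose by 0.36 ± 0.05 in WT (adjusted p = 0.00933) and by 0.26 ± 0.04 on average (0.00230), and differed by 0.16 ± 0.05 in Clock hearts (0.342). Lpcat3, another LXR target, rose by 0.21 ± 0.05 on average (0.0315) and differed by 0.22 ± 0.07 in Clock hearts (0.286). The list did not move as a whole: its median diet difference was 0.08 in WT hearts, -0.05 in Clock hearts and 0.02 on average. Ch25h, which did not pass, pointed downwards in both genotypes. Its mean was 0.16 in WT SC and -0.10 in WT HFD, and 0.10 in Clock SC and -0.12 in Clock HFD. Abcg1, Scd1 and Pltp did not pass either, and their means went up with HFD in WT hearts but down in Clock hearts. From Clock SC to Clock HFD they went from 0.09 to 0.03, from 0.17 to -0.01 and from 0.10 to -0.03. The means of Nr1h3 and Apoe, which did not pass, went up in both genotypes. In the uptake list, 2 of 8 rose on average (beside the same 0.812% of all genes) and 6 did not pass. They were Npc1 (0.23 ± 0.05, adjusted p = 0.0349) and Vldlr, a receptor that the Mylip protein marks for degradation (0.19 ± 0.04, 0.0381). In WT hearts Npc1 differed by 0.31 ± 0.07 (0.0850) and Vldlr by 0.21 ± 0.06 (0.173), and in Clock hearts by 0.15 ± 0.07 and 0.17 ± 0.06.

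The third comparison asks whether the mutation altered the diet differences. The interaction passed for 0 of 10 genes, as for 0% of all genes in limma's test. At unadjusted p under 0.05 it differed for 0 of 10 genes, against 5.06% of all genes. Its largest value was in Mvd, -0.22 ± 0.12 (95% interval -0.48 to 0.05, adjusted p = 0.982). The intervals were -0.22 to 0.48 for Hsd17b7, -0.31 to 0.15 for Fdft1, -0.29 to 0.14 for Mylip and -0.11 to 0.36 for Srebf2. All of these intervals include 0. In the other lists Msmo1 (0.18 ± 0.11), Pmvk (0.11 ± 0.09), Srebf1 (-0.13 ± 0.07), Scap (0.15 ± 0.09), Npc1 (-0.16 ± 0.10), Tmem97 (-0.07 ± 0.09), Abca1 (-0.20 ± 0.07) and Scd1 (-0.39 ± 0.19) were nearest, none passing.

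The genes most like each called gene were found by Pearson's r over the 16 hearts among 19394 named genes. Because the hearts fall into groups, r after taking out the group means is given too, and both are descriptions. Genes picked this way tend to share the group differences of the called gene. Their own differences, given below, are therefore descriptions as well and no separate evidence. For Fdft1 the 3 most alike were clock genes: Dbp (0.98, within groups 0.93), Ciart, a repressor of the clock (0.98 and 0.95), and Nr1d2, a REV-ERB (0.97 and 0.93). Dbp lay at 1.71, 1.89, 2.29 and 0.37 in WT SC hearts, so its low heart was replicate 4, as in Fdft1. Without that heart the correlations within groups were 0.73, 0.83 and 0.74. Of 13 E-box clock genes, 5 fell in Clock hearts on SC, 11 on HFD and 11 on average. Over all genes, 0.252%, 0.771% and 1.44% fell. With HFD 1 of the 13, the kinase gene Wee1, rose in WT hearts (0.79 ± 0.15) and on average, beside 0.185% and 0.812% of all genes.

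For Hsd17b7 the closest were Abcc9, a subunit of the cardiac ATP-sensitive potassium channel (0.93, within groups 0.65), Frem2 (0.90 and 0.60) and Golm2 (0.90 and 0.32). Each fell in Clock hearts on average, Abcc9 by 0.34 ± 0.05, Frem2 by 0.38 ± 0.05 and Golm2 by 0.71 ± 0.06. For Mylip they were Ephx2, the soluble epoxide hydrolase (0.95 and 0.74), Acaa2, a thiolase of mitochondrial fatty acid oxidation (0.93 and 0.59), and Gpam, an acyltransferase of triglyceride synthesis (0.93 and 0.73). All of them rose with HFD on average, by 0.51 ± 0.04, 0.30 ± 0.03 and 0.49 ± 0.07. For Srebf2 they were Nenf (0.91 and 0.71), the endothelial gene Egfl7 (0.89 and 0.72) and Srf, the serum response factor (0.88 and 0.61). Without WT SC replicate 4, the lowest heart of its group in Srebf2, the correlations within groups were 0.55, 0.55 and 0.53. Nenf, Egfl7 and Srf fell with HFD on average by 0.44 ± 0.09, 0.20 ± 0.04 and 0.20 ± 0.04.

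**Figure D4:**
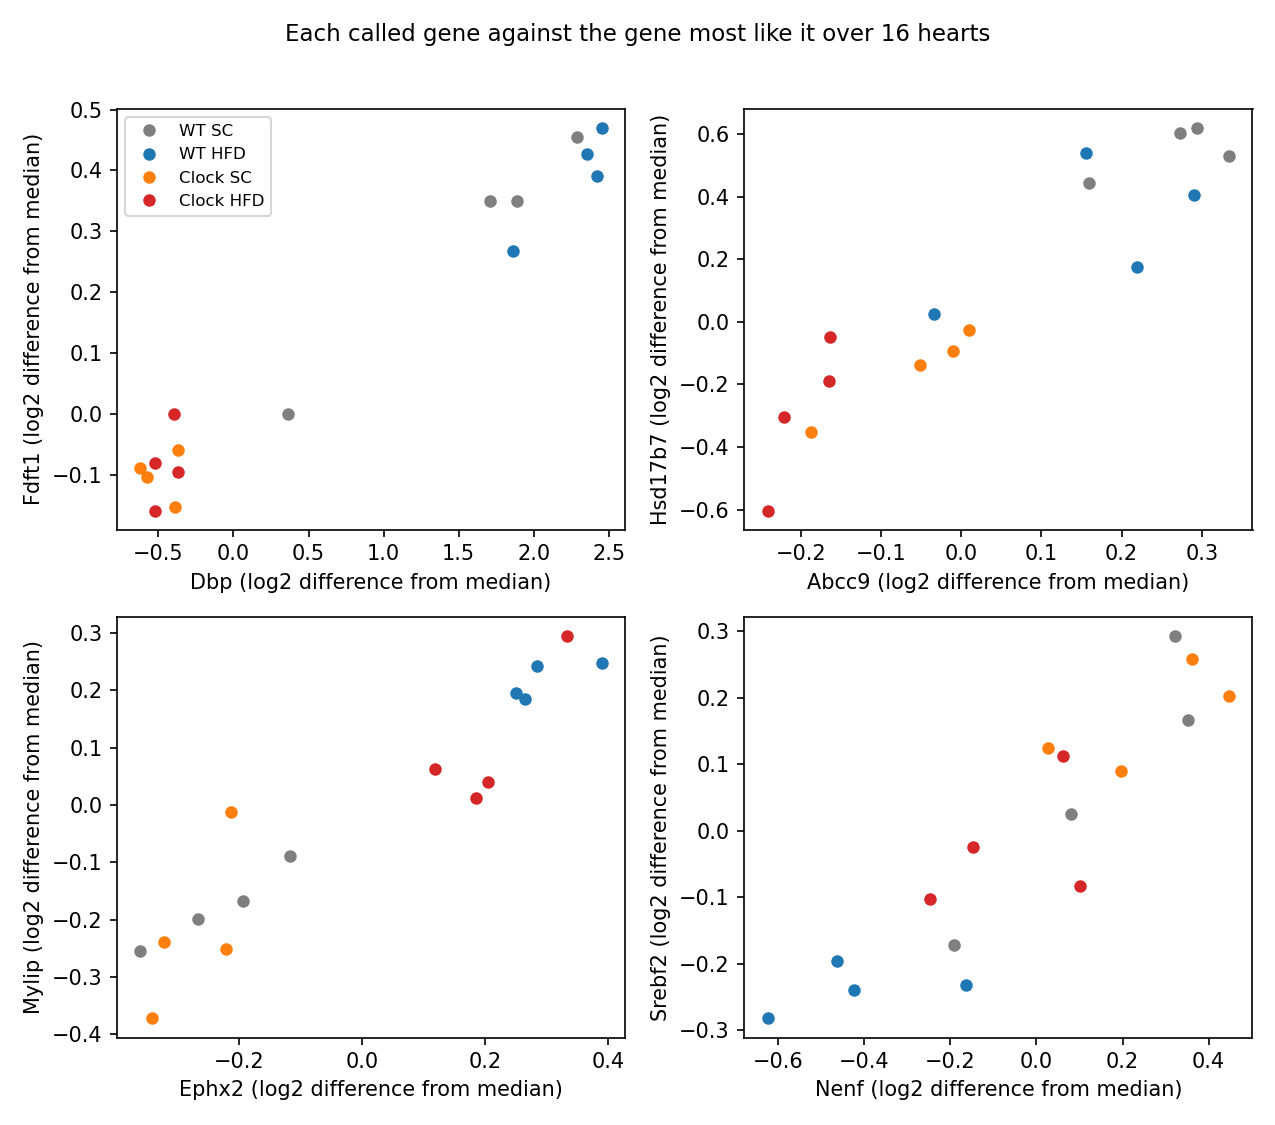
Each called gene (vertical axis) against the gene most like it (horizontal axis), both as log2 difference from the median over 16 arrays; points are hearts, coloured by group. Fdft1 and Dbp share 1 low WT SC heart, Abcc9 and Hsd17b7 run from Clock to WT hearts, and Ephx2 and Mylip split by diet.

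Within groups, correlations between the enzymes were mostly weak, and no pairs of genes from outside the 10 were put beside them. Over 28 pairs of the 8 enzymes, r after taking out group means ranged from -0.36 to 0.55 with a median of 0.12 (16 hearts). The highest was between Lss and Mvd. Hsd17b7 and Fdft1 correlated at 0.13. Srebf2 correlated with Fdft1 at 0.80 and with Cyp51 at 0.75. Over all 16 hearts these were its highest values with the 8 enzymes. With the other enzymes its r ranged from -0.13 (Mvk) to 0.35 (Sqle). A second r left out the 2 hearts in which the enzyme, after taking out group means, lay farthest from its median. It was 0.41 for Fdft1, 0.59 for Cyp51 and also 0.59 for Fdps (0.26 over all 16 hearts). The remaining enzymes then lay between -0.06 (Lss) and 0.15 (Hsd17b7). The hearts left out can differ between enzymes. The points share their arrays and the centring within groups.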

How the data were processed

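RNA from 16 hearts was measured on 1 Affymetrix array each, 4 hearts in each of 4 groups taken from the labels. The values of 34351 probe sets were deposited on a log scale, taken as log2 since no base is stated. The authors had already centred them, as a median of 0 in every row and array medians near 0 show. The sources used here name no software, background correction, normalization method or scan date, so no batch could be examined. No signal over background is left, and the number of arrays limits the precision.

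The 23521 probe sets with 1 gene symbol were averaged to 22180 genes. Matching gene IDs to RefSeq (GRCm38.p6) changed 0 symbols and left 193 probe sets unmatched. limma 3.58.1 (R 4.3.3) fitted 1 mean per group, with 12 residual and 4.16 prior degrees of freedom, 7 two-sided comparisons and Benjamini-Hochberg adjustment over all genes, and was tested on simulated data. Comparisons with a group in common are not independent. The labels call the replicates biological.

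The 10 genes, the gene lists and the motifs were chosen with earlier results of these data known. Named beside the 10 genes were, per list and comparison, up to 4 passing genes with the largest change, in 4 cholesterol lists with none passing the 2 with the smallest p, and the 3 genes most like each called gene, without predicted genes. Macrophage, smooth muscle, adipocyte and blood markers gave 0 calls by genotype. For average genotype, unadjusted p was under 0.05 in 0 of 10, 4 of 7, 0 of 8 and 1 of 5, beside 16.5% of all genes. On average diet 2 of 8 adipocyte markers (Cidea and Plin4) rose, beside 0.812% of all genes. Of 10 cardiomyocyte markers Ryr2 rose with both genotype and diet on average, beside 2.44% and 0.812% of all genes. Of 24 immediate early genes, Egr2 rose and Ier3 fell in Clock hearts on HFD, and Egr2 fell with HFD in WT hearts. Over all genes, 1.13% rose and 0.771% fell in Clock hearts on HFD, and 0.167% fell with HFD in WT hearts. Alternatives were each probe set tested, the most variable probe set per gene, trended and robust eBayes, array weights, quantile normalization once more, a fit restricted to the groups compared, the replicate block, an immediate early covariate and leaving out arrays. Figures were drawn with matplotlib 3.10.9. Some genes of the lists are not reported here.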

Additional observations from a re-analysis of the deposited data

Results flagged for a closer look

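In 64 sets of 4 hearts (16 named genes by 4 groups), 3 had 1 heart far from the other 3 by Dixon's criterion for 4 values, which chance meets in about 1 in 20 sets. Mvd in WT HFD replicate 4 was 0.23, with the other hearts of its group between -0.000199 and 0.037. Mvk in WT SC replicate 3 was -0.16, with the others between 0.020 and 0.049. Lpcat3 in Clock HFD replicate 4 was 0.18, with the others between -0.020 and 0.0081.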

How the results depend on the processing

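Of 179 values for the 9 called differences of the 10 genes under other settings, 146 kept the call, 33 lost it and 0 turned. The average genotype falls of Hsd17b7 and Fdft1 and the average diet rise of Mylip held in all 24 settings run for each. Fdft1 on SC lost its call under trended and robust eBayes (adjusted p = 0.272) and with only the compared groups fitted (0.168), Fdft1 on HFD under the former (0.0751) and Hsd17b7 on HFD under the latter (0.0643). Without WT SC replicates 2 and 4, Mylip in WT had adjusted p = 0.193 and Srebf2 in WT passed (-0.47, 0.0256). Without WT SC replicate 3, Srebf2 passed on average genotype (0.19, 0.0476).
Replicate numbers did not pair the hearts: same-numbered hearts correlated at -0.149 to 0.163 after taking out group means, and 1 of 16 correlated best with its own number. With the replicate block, 41 genes passed for diet in WT (78 without it), 12 for diet in Clock hearts (20), and 1 of the 10 genes on average diet, where Srebf2 had adjusted p = 0.0526. It changed no other call of the 10 genes.
For genotype on SC (109 genes, 2 of the 10), trended and robust eBayes gave 59 and 1, only the compared groups 38 and 1, and leaving out WT SC replicates 2 and 4 gave 49 and 1. For genotype on HFD (422 and 2), the first of these settings and the second each gave 1 of the 10, and the immediate early covariate gave 276 genes. For diet in WT (78 and 1) these settings gave 40 genes (trended and robust), 15 (compared groups), 12 with 0 of the 10 (covariate) and 11 (without the 2 arrays). For diet in Clock hearts (20 and 0) trended and robust eBayes gave 8, array weights 53 with 1 of the 10, repeated quantile normalization 36 and the compared groups 7. The average genotype count of 861 became 507 without the 2 arrays, and the average diet count of 341 (2 of the 10) became 141 without them and 110 with 1 of the 10 under the covariate.
With 1 array left out, the genes called ranged from 49 to 144 for genotype on SC (49 without WT SC replicate 2), 241 to 344 on HFD, 28 to 65 for diet in WT, 6 to 14 in Clock hearts, 0 to 0 for the interaction, 648 to 1003 for average genotype and 218 to 329 for average diet. Of the 10 genes, 1 to 2 were called for genotype on SC and on HFD, 0 to 1 for diet in WT, 0 to 0 in Clock hearts and for the interaction, 2 to 3 for average genotype and 1 to 2 for average diet. Some of these counts lay above those with all arrays and some below, and the cause was not tested.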
